A study of Drosophila melanogaster with 9 samples.

Results

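The genes described here code for the somatic subunits of the proteasome in Drosophila melanogaster larvae. They were taken from the deposited expression table by name, as genes called Prosalpha, Prosbeta, Rpt or Rpn followed by a number, with the testis forms (names ending in T or R) left out. The rule found 32 gene names on 33 loci, of 16413 names on 15809 loci in all, and 31 of the 33 loci were abundant enough to be tested (1 FPKM or more in 3 or more libraries). Of these, 13 code for the core, 10 for the base and 8 for the lid.

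The proteasome is the protease that degrades ubiquitin-tagged proteins in the cytosol and nucleus. Its core is a stack of rings of alpha and beta subunits, with the proteolytic sites on beta subunits facing an inner chamber. The regulatory particle on its end has a base, with a ring of ATPases that unfold substrates and thread them into the core, and a lid, which holds the enzyme that removes the ubiquitin chain. Autophagy, for which Atg6 (the fly Beclin 1, a subunit of a lipid kinase complex) is needed, is the other major route of protein degradation in the cell.

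RNA came from whole wandering larvae of the last instar raised on standard food at 25 °C, with 3 libraries per genotype in the w118 genetic background. The wild type was Atg6 wild type, the heterozygote Atg6-/+ (titled Atg6D/+) and the homozygote Atg6-/- (titled Atg6D/Atg6D), so the mutant larvae carried 1 or 2 copies of the same allele. Levels are FPKM (sequenced fragments per kilobase and per amount sequenced), which can be compared between genes because they are per length. How many larvae went into a library is not given, so a p-value measures the spread between these libraries, which may be technical. Because whole larvae were used, fewer cells of a type and less RNA per cell cannot be told apart.

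Atg6 itself was at 16.1, 14.3 and 17.0 FPKM in wild type libraries, 7.58, 7.98 and 8.89 in heterozygotes and 0.027, 0 and 0.0563 in homozygotes, as the labels have it. The homozygotes also stood apart in tissue markers. The summed FPKM of 10 salivary gland marker loci was between 53846 and 78092 in wild types and heterozygotes and was 6373, 25512 and 29051 in homozygotes 1, 2 and 3, and that of 9 lamellocyte (parasite-encapsulating blood cell) loci was 504 to 618 against 1493 to 1675. Much of the salivary gland sum was Sgs7 (35406 of 54036 FPKM in wild type 1), and the loci did not all go 1 way. Of the 10, 8 had a negative log2 change in the homozygote against wild type. ng1 and ng3 had their highest library in homozygote 1 (133 and 2112 FPKM). In the marker lists, 3 loci were listed at 0 in some library. They were the fat body storage protein genes Lsp1beta, in heterozygote 3 and homozygote 1, and Lsp1gamma, in all 9 libraries, and the flight muscle actin Act88F, in wild types 2 and 3.

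The proteasome genes were abundant and close to one another in level. In the wild type the mean FPKM of the 31 tested members ran from 124 for Rpn1, a base scaffold that docks ubiquitin receptors, to 253 for Prosbeta5, the core subunit with chymotrypsin-like activity. Their median was 169.5, while the median of all 10887 tested loci was 12.6, and 92.8% of tested loci lay below the lowest member. From the lowest to the highest member the level differed 2.04-fold, with a coefficient of variation between members of 19.1%. The median was 176 FPKM for the core, 151 for the base and 165 for the lid, and the ranges of the 3 overlapped.

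A single member name had almost no signal. Prosalpha1, an alpha ring subunit, named 2 neighbouring loci on chromosome arm 2R, and at neither did any of the 9 libraries exceed 0.46 FPKM. By position, 1 of these loci (7829062 to 7831788) does not overlap the annotated Prosalpha1. That locus overlaps CG18853 and Prosalpha1R, whose name the rule leaves out. In the annotation the neighbour of Prosalpha1 is Prosalpha1R, a near-identical copy, so reads from these genes may not have been assigned to either, which was not tested. Prosalpha1 is therefore reported as uncertain and its values as no measure of its expression. The Rpt1 locus also carried the name CG17985, so reads of these genes cannot be separated.

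The summed level of the 33 member loci was lower in the heterozygotes than in the wild types, while the homozygotes spanned both. The sum was 5610, 5043 and 5472 FPKM in wild types 1, 2 and 3, 4297, 4517 and 4699 in the heterozygotes, and 2988, 6073 and 4139 in homozygotes. On this deposited scale all 3 heterozygotes lay below the wild types, homozygotes 1 and 3 lay below the heterozygotes, and homozygote 2 lay above every wild type. As a share of the library's FPKM sum, however, heterozygote 3 (0.496%) lay above wild type 2 (0.486%), and homozygote 3 (0.418%) above heterozygote 1 (0.391%). On a log2(FPKM + 1) scale, the median member stood at -0.89, 0.17 and -0.41 relative to its wild type mean in homozygotes 1, 2 and 3, and at -0.31, -0.26 and -0.20 in the heterozygotes.

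The members moved as a block from library to library. In homozygotes 1 and 3, 31 of 31 members lay below every wild type library, as did 39.4% and 37.1% of all tested loci. In homozygote 2, 26 members lay above every wild type library (35.2% of tested loci) and 1, Rpn7, lay below (35.4%). In the heterozygotes 31, 31 and 30 members lay below every wild type library, beside 30.8%, 17.3% and 17.4% of tested loci, the exception being Prosalpha3 (alpha ring) in heterozygote 3. The library median accounted for 94.5% of the variance of the members' log2 levels over the 9 libraries. Pearson correlations between members ran from 0.79 to 1.00, with a median of 0.97 over 465 pairs, and within genotypes (deviations from each genotype's mean) from 0.94 with a median of 0.99. These describe points that share libraries and carry no test.

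**Figure D1:**
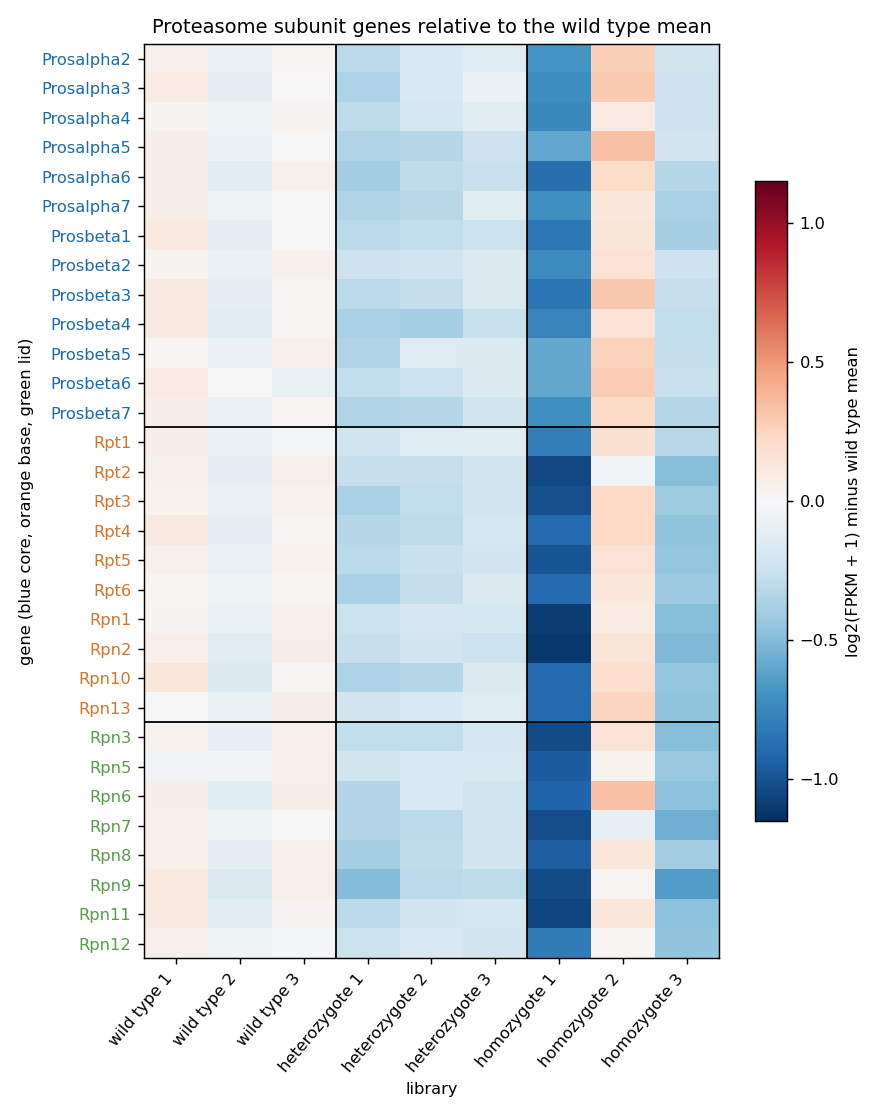
Each row is a member, each column a library, and the colour is log2(FPKM + 1) minus the mean of that gene's 3 wild types (blue lower, red higher). The heterozygote columns are pale blue, homozygote 1 is dark blue in all 31 rows, and homozygote 2 is mostly red.

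In larvae with 1 mutant copy, the members were slightly lower than in the wild type. The log2 change was negative for 31 of 31 members, with a median of -0.25 and a range from -0.37 for Rpn9 to -0.17 for Rpt1, and the median of all tested loci was -0.0005. By limma on log2(FPKM + 1), with Benjamini-Hochberg adjustment over the 10887 tested loci, 0 members passed an adjusted p of 0.05 and 0 had an unadjusted p under 0.05. Of tested loci 0.0643% passed as lower and 0.147% as higher, and 2.32% and 3.39% did so without adjustment. The libraries of the genotypes did not overlap for 30 of 31 members, all lower in the heterozygote, against 6.18% of tested loci that were lower without overlap and 8.14% of the 946 loci whose wild type mean was at least 100 FPKM. The members share the same 6 libraries and move together, so these 30 are not independent observations.

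The homozygotes enter that test through the shared spread. In a fit of wild types and heterozygotes alone, 29 members were lower at an unadjusted p under 0.05, against 3.63% of tested loci, and still 0 passed after adjustment. The count without overlap also rested on the scaling of the libraries. It was 6 after quantile normalization, against 5.5% of tested loci, and 8 after the FPKM of each library was rescaled to 1 common sum, against 8.97%, while the median changes there were larger, -0.39 and -0.45. The rescaling moved the median of all tested loci by -0.18, so that relative to it the members' median was about where it was on the deposited scale.

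In larvae with 2 mutant copies, no member passed the test. The log2 change against wild type was negative for 31 of 31, with a median of -0.37 and a range from -0.56 for Rpn7 to -0.16 for Prosalpha5, beside a median of 0.01 over all tested loci. By limma, 0 members passed the adjusted threshold, where 9.67% of tested loci passed as lower and 12.3% as higher. At an unadjusted p under 0.05, 2 were lower, Rpn7 and Rpt2, against 21.6% of tested loci, and the libraries of 1 member, Rpn7, did not overlap, against 20.5%. The members' counts were thus below the background of the contrast, but the members move together, so these counts are not independent observations.

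Homozygote 2 decided these counts. Without it, 25 of 31 members were called lower (adjusted p from 0.0128 to 0.0495, limma), against 8.85% of tested loci, and 31 did not overlap the wild types, against 30.4%. The 6 not called were core genes, Prosalpha2, Prosalpha3, Prosalpha4, Prosalpha5, Prosbeta2 and Prosbeta3. Without homozygote 1 instead, 0 were called and the median change was -0.12. The members lay mostly above the wild types only in homozygote 2, so the 31 without overlap restates the counts per library. Leaving homozygote 2 out keeps 2 homozygotes, and the members move together, so the 25 calls are not independent observations.

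**Figure D2:**
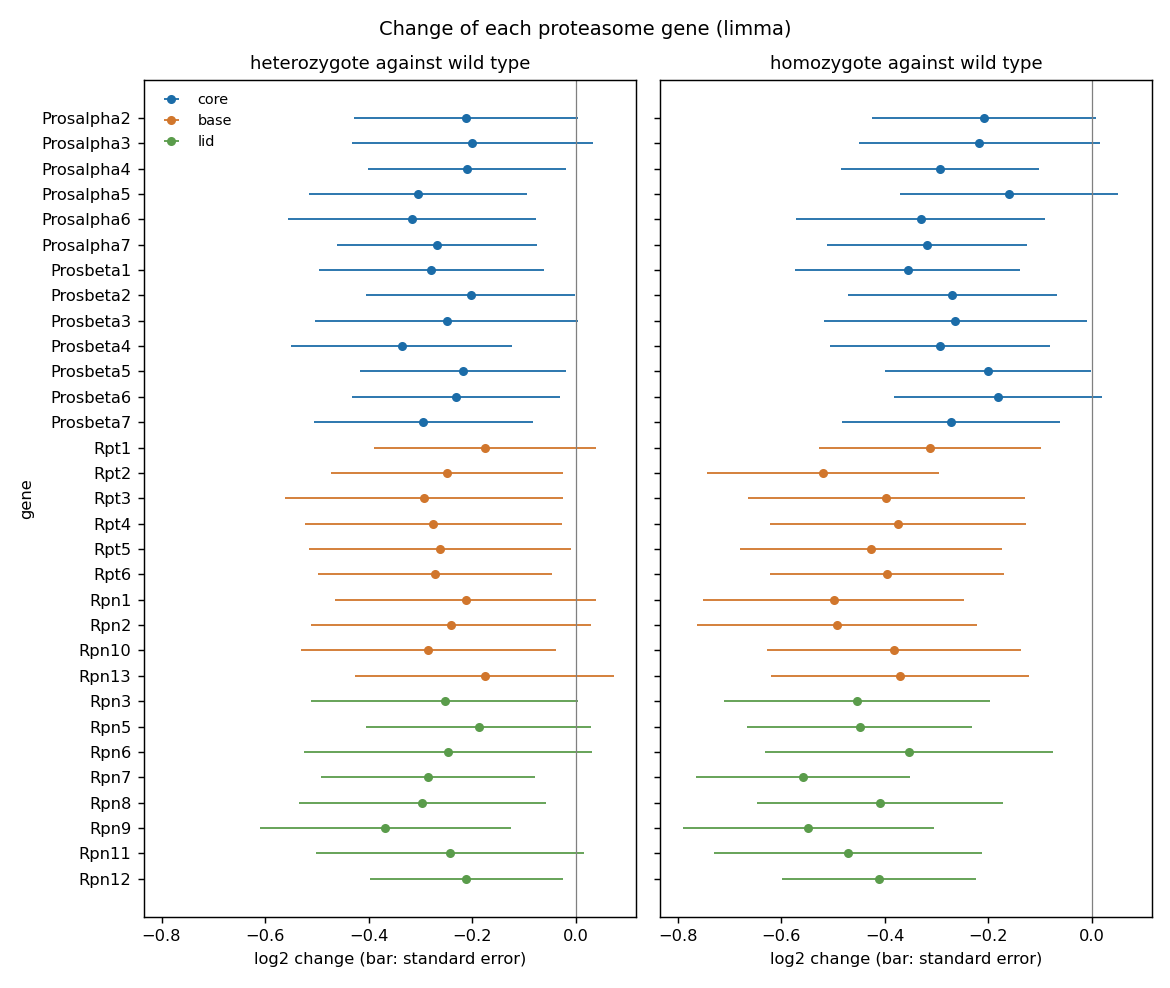
The log2 change of each of the 31 tested members with its limma standard error, for heterozygote against wild type (left) and homozygote against wild type (right). All points lie below 0; on the right the core genes (blue, median -0.27) lie closer to 0 than the base (orange, -0.40) and the lid (green, -0.45), within wide errors.

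Between the mutant genotypes the members did not separate. Against the heterozygote, 25 of 31 were lower in the homozygote, the median change was -0.10 and its range -0.29 to 0.14. By limma 0 passed the adjusted threshold, against 1.42% of tested loci lower and 6.27% higher, 0 were lower at an unadjusted p under 0.05 (11.4% of tested loci), and 0 were lower without overlap (15.6%). Without homozygote 2, 21 members were lower with no overlap, against 26.2% of tested loci; without homozygote 1 the median turned to 0.16.

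Among the lid genes, Rpn7, a structural subunit of the lid, was at 142, 131 and 137 FPKM in wild type libraries, 108, 111 and 117 in heterozygotes and 66.7, 128 and 92.2 in homozygotes. It was the 1 member for which every homozygote, homozygote 2 included, lay below every wild type. Its log2 change in the homozygote was -0.56 ± 0.21 (SE, adjusted p = 0.0828, limma), not past the threshold. Rpn9, another structural lid subunit, was at 203, 167 and 196 FPKM in wild type libraries, 132, 151 and 153 in heterozygotes and 91.8, 191 and 120.1 in homozygotes, so that homozygote 2 lay among the wild types (log2 change -0.55 ± 0.24, adjusted p = 0.129, limma). Rpn11, the deubiquitinase that cuts the ubiquitin chain from the substrate, was at 193, 164 and 183, then 145, 153 and 156, and 85.6, 195 and 129 FPKM in the same order of genotypes. Homozygote 2 was its highest library and homozygote 1 its lowest.

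In the base, the ATPase Rpt2, whose tail takes part in opening the gate of the core in yeast, was at 192, 172 and 193 FPKM in wild type libraries, 154, 154 and 159.6 in heterozygotes and 89.7, 182 and 132 in homozygotes. Its heterozygotes lay below its wild types without overlap, and homozygote 2 lay within the wild type range (homozygote change -0.52 ± 0.22, adjusted p = 0.121, limma). The ATPase Rpt6 was at 154, 147 and 154, then 117, 125 and 135, and 80.9, 165 and 113 FPKM (-0.40 ± 0.23, adjusted p = 0.223, limma). Rpn1 was at 126, 117 and 128 FPKM in wild type libraries, 105, 108 and 108 in heterozygotes and 57.8, 131 and 88.1 in homozygotes (-0.50 ± 0.25, adjusted p = 0.175, limma). For both genes homozygote 2 was above all other libraries and homozygote 1 below them. Rpn2, the second scaffold of the base, had the lowest value of any member relative to its wild type mean, -1.11 on the log2 scale in homozygote 1, where it was at 60.6 FPKM against 137, 121 and 138 in the wild types.

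The ubiquitin receptors of the base followed the same order. Rpn10 was at 168, 137 and 156 FPKM in wild type libraries, 119.6, 122 and 136 in heterozygotes and 82.1, 175 and 113 in homozygotes, and Rpn13 was at 157, 148 and 164, then 135, 138 and 142, and 83.5, 185 and 113. In both, homozygote 2 exceeded each of the wild types.

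In the core, Prosbeta1, the caspase-like catalytic subunit, was at 185, 158 and 172 FPKM in wild type libraries, 138, 141 and 144 in heterozygotes and 95.9, 189 and 131 in homozygotes (-0.36 ± 0.22, adjusted p = 0.253, limma). Prosbeta2, the trypsin-like subunit, was at 173, 160.3 and 176, then 144, 145 and 152, and 101, 190.5 and 143 FPKM (-0.27 ± 0.20, adjusted p = 0.346, limma). Prosbeta5 was at 257, 241 and 262, then 199, 228 and 227, and 168, 304 and 209 FPKM. All 3 catalytic genes had their heterozygotes below their wild types, and their highest library was homozygote 2.

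The other rings gave the same picture. Prosalpha7 (alpha ring) was at 210.2, 193 and 199 FPKM in wild type libraries, 158, 161 and 182 in heterozygotes and 123, 219 and 155 in homozygotes (-0.32 ± 0.19, adjusted p = 0.249, limma). Prosbeta4 (non-catalytic beta subunit) was at 183, 157 and 173, then 131, 131 and 143, and 99.7, 192 and 140.4 FPKM, with a larger log2 difference in the heterozygote (-0.34 ± 0.21, adjusted p = 0.835, limma) than in the homozygote (-0.29 ± 0.21, adjusted p = 0.331). Prosalpha5 (alpha ring), which had the smallest homozygote difference, was at 185, 168 and 176, then 138, 140.4 and 149, and 116, 223 and 151 FPKM. In each of these genes homozygote 2 was the highest library.

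Core genes lay above base and lid genes in homozygotes, relative to the wild type. In the heterozygote the median log2 change was -0.25 for the core, -0.26 for the base and -0.25 for the lid. In the homozygote it was -0.27, -0.40 and -0.45. Within each library, the median of the core genes minus that of the base and lid genes was 0.01, 0.01 and -0.03 in wild type libraries, -0.03, -0.01 and 0.05 in the heterozygotes, and 0.26, 0.09 and 0.20 in homozygotes. The 3 homozygotes lay above the other 6 libraries, homozygote 2 included, although its overall level was the opposite of the others. No test was made of this difference, since it is a score over members chosen by name.

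**Figure D3:**
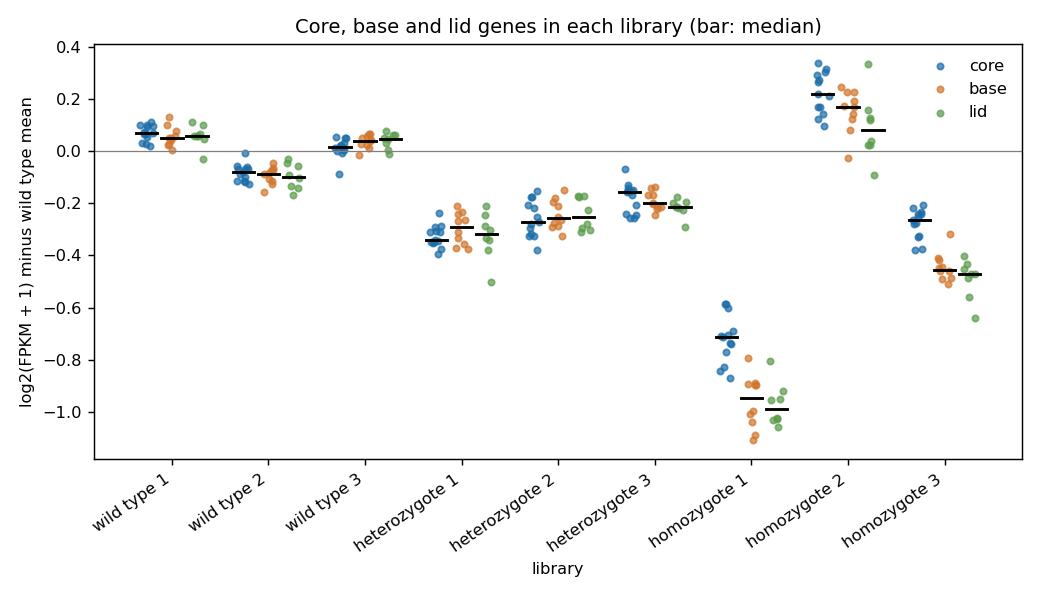
Each point is a tested member in a library, as log2(FPKM + 1) minus its wild type mean, in blue for the core (13), orange for the base (10) and green for the lid (8); bars are medians. In homozygotes 1 and 3 nearly all core points lie above the base and lid points, and in wild type and heterozygotes the 3 groups overlap.

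Gene by gene, a core gene lay above a base or lid gene (each relative to its wild type mean) in 228 of 234 pairs in homozygote 1 (97.4%), 75.6% in homozygote 2 and 98.3% in homozygote 3, and in 27.8 to 62.8% in the other 6 libraries. In homozygotes 1 and 3, 13 of 13 core genes lay above the median of the base and lid. In homozygote 1 the core ran from -0.87 (Prosalpha6) to -0.58 (Prosbeta5) and the base and lid from -1.11 (Rpn2) to -0.79 (Rpt1). In homozygote 3 the core ran from -0.38 (Prosbeta1) to -0.21 (Prosalpha2) and the base and lid from -0.64 (Rpn9) to -0.32 (Rpt1). Rpt1 was the base or lid gene nearest to the core in both. Its deposited locus overlaps further annotated genes, as do 15 of the 31 tested member loci in all. Among the 16 that overlap 1 annotated gene, core minus base and lid was 0.30, 0.08 and 0.21 in homozygotes 1, 2 and 3 and -0.08 to 0.05 elsewhere.

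The homozygotes lay above the other 6 libraries on other scales too. The difference between core and regulatory genes in homozygotes 1, 2 and 3 was 0.19, 0.11 and 0.16 after quantile normalization, with -0.06 to 0.05 in the other libraries. Rescaling the FPKM to 1 common sum multiplies each library by 1 factor, which all but cancels in this difference. The values there (0.26, 0.09 and 0.20) therefore repeat the deposited scale and are no separate check. Core transcripts are shorter than those of the base and lid, with a median annotated length of 973 against 1534 bases, and transcript length moved with level in some libraries. Among 5657 tested loci with an annotated length and a mean of at least 10 FPKM, those of at most 1000 bases had a median log2 difference from the wild type mean of 0.34, 0.0050 and 0.17 in homozygotes 1, 2 and 3. For loci over 1500 and up to 2000 bases it was 0.15, 0.084 and 0.14. Short loci thus stood clearly higher in homozygote 1, slightly higher in homozygote 3 and lower in homozygote 2. With the trend on transcript length removed by a smooth fit over all loci, the difference was 0.16, 0.10 and 0.16, above the other 6 libraries (-0.05 to 0.03). Over the 31 members, length had a Spearman rho of -0.77, -0.35 and -0.73 with the values in homozygotes 1, 2 and 3. It was 0.15, -0.30 and -0.03 within the core and -0.50, 0.12 and -0.26 within the base and lid.

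**Figure D4:**
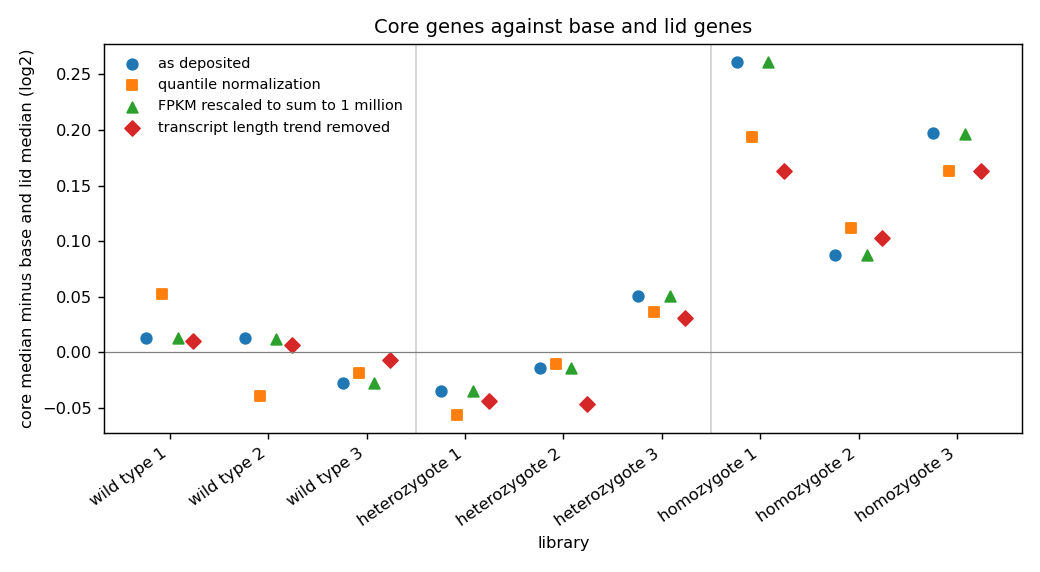
The median of the core genes minus the median of the base and lid genes in each library (log2), on the deposited scale and 3 others. On each scale the 3 homozygotes (0.09 to 0.26) lie above the 3 wild types and 3 heterozygotes (-0.06 to 0.05).

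Some base and lid genes lie near Atg6, which is on 3R at 24049180 to 24053596 (dm6). Rpt2 (3R, 23929243 to 23931558) is 117.6 kb away, Rpt5 288.6 kb, Rpn9 296.3 kb and Rpn7 1587.1 kb. The deposited loci of these 4 genes also overlap other annotated genes. Rpn7, Rpn9 and Rpt2 had the 3 most negative changes of all members in the homozygote, and the 4 had a median of -0.53, against -0.40 for the 14 other base and lid genes. The 459 other tested loci within 2000 kb of Atg6 had a median of 0.0024, and any part of the linked chromosome in the 4 values was not tested. With the 4 left out, core minus base and lid was 0.22, 0.07 and 0.19 in homozygotes and at most 0.04 elsewhere.

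The level of the members moved with measures of the library as a whole. Muscle markers, contractile protein genes such as Mhc and Act57B, moved against them. The summed FPKM of 18 muscle marker loci was 9456, 23379 and 11322 in wild types 1, 2 and 3, 26731, 17970 and 17535 in heterozygotes and 34500, 12879 and 29023 in homozygotes. Within each genotype the library with more muscle RNA had the lower proteasome sum, in exact reverse order, and homozygote 2, with the highest proteasome sum, had less muscle RNA than any heterozygote. Of the 18 loci 16 were tested. The reversal was not particular to muscle, as the summed FPKM of 11 gut marker loci showed it too. That sum was 19080, 35656 and 22302 in wild types 1, 2 and 3, 48123, 36131 and 31679 in heterozygotes and 32204, 17747 and 28260 in homozygotes. The FPKM sum over all loci showed the same reversal within genotypes, from 754677 in wild type 1 to 1.09906e+06 in heterozygote 1. Heterozygotes 2 and 3 were close in that sum, at 955947 and 947989. Lsp1beta was at 11876 FPKM in heterozygote 2 and 0 in heterozygote 3, so the order of these 2 libraries may rest on this locus.

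With the median level of the 16 muscle loci in each library as a covariate in the limma fit, a setting chosen after this was seen, the median change of the members was -0.041 in the heterozygote and -0.084 in the homozygote, and 0 members had an unadjusted p under 0.05 in either. The order of the parts stayed in the homozygote, with -0.02 for the core, -0.11 for the base and -0.18 for the lid. In that fit 707 of all tested loci were still called lower and 1385 higher in the homozygote. The covariate itself differs with genotype, so what it removes cannot be told apart from genotype. Markers of the nervous system and imaginal discs had medians, relative to the wild type mean, of -0.42, -0.10 and -0.29 in homozygotes 1, 2 and 3, -0.02, 0.07 and -0.03 in heterozygotes and 0.16 to -0.19 in wild types. Of 12 such loci 2 were called lower by limma in the homozygote, against 9.67% of tested loci, and 10 had negative changes. A correlation of at least 0.8 with the members over the 9 libraries was reached by 2 of them, against 6.94% of other tested loci. For elav, which marks neurons, it was 0.74. The locus sd went the other way, at 32.1, 36.3 and 34.3 FPKM in wild type libraries and 39.8, 36.9 and 37.5 in homozygotes. The part of these markers in the result was not tested. The summed salivary gland marker level was also lowest in homozygote 1, although ng1 and ng3 were highest there. It did not follow the members in homozygote 2, and the part of these markers was not tested either.

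**Figure D5:**
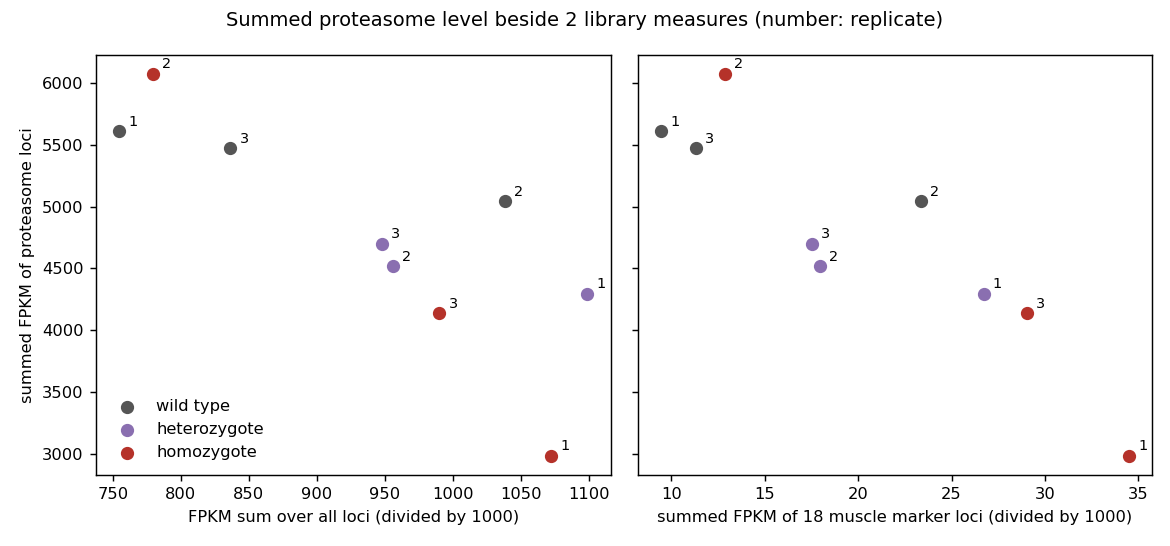
The summed FPKM of the proteasome loci in each library (vertical) beside the FPKM sum over all loci (left) and the summed FPKM of 18 muscle marker loci (right), both divided by 1000; numbers are replicates. Within each genotype the order of the proteasome sums is the reverse of the order of either measure. On the left, heterozygotes 2 and 3 are close, and their order may rest on Lsp1beta, at 0 in heterozygote 3. Homozygotes 1 and 2 mark the ends (2988 and 6073 FPKM).

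Genes that serve the proteasome were compared through a list of 14 helpers (assembly, regulators and associated enzymes). By limma 0 of 14 passed in either direction in any contrast, where 9.67% of tested loci passed as lower and 12.3% as higher in the homozygote. Their median was -0.18 in the heterozygote and -0.24 in the homozygote. Of the 14, 9 had a Pearson correlation of at least 0.9 over the 9 libraries with the median profile of the members, as did 1.97% of tested loci other than members (214), a description with no test. Sem1, a small lid subunit whose name the rule does not match, was the most abundant of them, at 348, 325 and 355 FPKM in wild type libraries, 288, 321 and 317 in heterozygotes and 205, 409.8 and 299 in homozygotes, a correlation of 0.98. It was lower in each heterozygote than in each wild type, and its highest library was homozygote 2.

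CG5384, the fly Usp14 (a deubiquitinase of the regulatory particle), had a correlation of 0.99, Pomp, which assists assembly of the core, 0.96, and the deubiquitinase Uch-L5 0.95. The shuttle proteins that bring ubiquitinated substrates differed among themselves. Rad23 had 0.92 and rngo, the fly Ddi1, had 0.94, while Ubqn had 0.10. REG, the core activator that acts without ubiquitin, went the other way at -0.59, with 67.6, 70.2 and 68.8 FPKM in wild type libraries, 69.6, 68.1 and 68.2 in heterozygotes and 85.1, 77.7 and 77.5 in homozygotes. Its homozygotes lay above its other libraries, without passing the adjusted threshold.

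A further list held 14 genes of ubiquitin supply and the unfoldase complex. By limma 0 passed in the homozygote, against 9.67% of tested loci lower and 12.3% higher. Their median was -0.08, and 4 had a correlation of at least 0.9. They were TER94, the p97 unfoldase (0.99), its cofactors Ufd1-like (0.92) and Npl4 (0.91), and the ubiquitin ligase Ube3a (0.95). TER94 was at 228, 209 and 230.2 FPKM in wild type libraries, 183, 191 and 201 in heterozygotes and 126, 231 and 173 in homozygotes. The heterozygotes lay below the wild types, and homozygote 2 was again at the top. The E2 enzyme eff had -0.66.

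A list of 8 genes was drawn from the Nrf-type control of proteasome genes, in which the fly factor cnc with its partner maf-S drives their transcription. cnc was at 70.3, 74.2 and 79.4 FPKM in wild type libraries, 73.9, 74.7 and 74.4 in heterozygotes and 61.3, 111.9 and 77.2 in homozygotes, with a correlation of 0.70 to the members. Its highest and lowest libraries were homozygotes 2 and 1, and the heterozygotes lay within the wild type range. Of the 8, 1 passed by limma in the homozygote, as higher, a share close to the 12.3% of all tested loci that did so. ref(2)P is the fly p62, a ubiquitin-binding autophagy receptor that is itself degraded by autophagy. It was at 147, 124 and 129 FPKM in wild type libraries, 151, 152 and 156 in heterozygotes and 211, 271 and 231 in homozygotes. Its log2 change in the homozygote was 0.82 ± 0.12 (adjusted p = 0.00398, limma), with no overlap. Its heterozygotes also lay above its wild types, though 0 of the 8 genes passed by limma in the heterozygote.

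Other large complexes were compared in the same libraries. The COP9 signalosome, whose subunits are related to those of the lid, had medians of 0.03 in the heterozygote and -0.10 in the homozygote. In the homozygote 0 of 9 were called, against 9.67% of tested loci lower and 12.3% higher. There 7 of the 9 changes were negative, and 4 loci were lower without overlap, against 20.5% of tested loci. The translation factor eIF3, the other complex with lid-related subunits, had 12 of 13 called higher in the homozygote, where 12.3% of all tested loci were. Its median was 0.66, and eIF-3p66 rose by 1.09 ± 0.09 on the log2 scale (adjusted p = 0.000401, limma). The chaperonin CCT had 4 of 8 called higher, with a median of 0.30, and cytoplasmic ribosomal proteins 79 of 86 higher and 1 lower, with a median of 0.67. No locus of these 4 lists had a correlation of 0.9 with the members. The difference between these lists and the members was not tested.

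The testis forms of the proteasome, encoded by separate genes, were low and followed a different order. In the homozygote 6 of 15 were called lower by limma, against 9.67% of tested loci. Their median was -1.16, and none had a correlation of 0.9 with the members. Testis markers were lower too, with 9 of 19 called by limma and a median of -1.45, and their part in the lower testis forms was not tested. Rpn12R, a testis form of the lid, was at 11.8, 5.12 and 7.37 FPKM in wild type libraries, 3.10, 5.44 and 6.38 in heterozygotes and 3.71, 1.10 and 1.35 in homozygotes (-1.61 ± 0.39, adjusted p = 0.0305, limma). It was lower in homozygote 2 than in homozygote 1, the reverse of its somatic counterpart Rpn12, at 154, 143 and 147, then 124, 131 and 127, and 84.2, 150.3 and 108 FPKM.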

How the data were processed

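Per the labels, the Qiagen RNeasy kit was used on whole larvae, and the Illumina libraries kept strand and were read in pairs of 75 bases. The authors deposited FPKM per locus and library. The build is dm6 and the tools named are Cufflinks 2.2.1, HISAT2 2.1.0 and limma, per the submitters' processing notes, and the annotation is not given in the sources used here. FPKM carries no absolute depth, which is therefore unknown; relative depth from the smallest steps of each library ran from 0.785 to 1.27 of wild type 1. The FPKM table holds 50244 lines for 15809 loci, and 1 line per locus was kept; 818 loci carry several names.

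Loci at 1 FPKM or more in at least 3 libraries (10887) were fitted on log2(FPKM + 1), where the pseudocount of 1 changes fold changes of the abundant members little, with limma 3.58.1 in R 4.3.3 (lmFit, contrasts.fit, eBayes with trend). The 3 genotypes were fitted together, with Benjamini-Hochberg adjustment at 0.05. Tables and figures used Python 3.11.15. On simulated data for homozygote against wild type (10887 loci), 73% of 100 loci changed 2-fold and 90% of 100 changed 4-fold were recovered. The members changed less (log2 -0.56 to -0.16), and the simulated noise was independent between loci, unlike theirs. These rates therefore do not tell how often changes like theirs would be recovered. Gene positions are the deposited dm6 loci counted from 1, and transcript lengths come from Ensembl release 115.

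Any member could be named. Full statistics were planned for at most the 2 members of each role with the smallest adjusted p in the homozygote, and of other lists for up to 3 genes per direction past the threshold or else the most abundant; not each of them is printed, and other genes were named after their values were seen. The members and lists were chosen with earlier results of these data known. Sequences are not used here.
In the setting called rescaled, the FPKM of each library were scaled to sum to 1000000.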

Additional observations from a re-analysis of the deposited data

How the results depend on the processing

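The alternatives were quantile normalization, median-of-ratios scaling, an unfiltered table or one filtered at 5 FPKM, a pseudocount of 0.1 or 5, eBayes without trend, fits of only the genotypes compared, a replicate block, an adjusted p under 0.01, loci with a single name, Rpn10 left out of the base, and leaving out each library. Added after the data were seen were FPKM rescaled to a common sum, removal of the transcript length trend, the muscle covariate, leaving out the members near Atg6, and loci overlapping 1 annotated gene. In 743 of 743 results for single members in the heterozygote, 743 of 743 between the mutants and 718 of 743 in the homozygote the call did not change; the other 25 passed in the homozygote without homozygote 2. 

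Members called lower in the homozygote numbered 0 in every alternative run except without homozygote 2 (range over left-out libraries 0 to 25). The count without overlap in the homozygote was 0 with quantile normalization and with rescaling, and 1 to 31 over left-out libraries, with 3 without wild type 2. In the heterozygote it was 6 and 8 under those scalings. The heterozygote median was -0.39 with quantile normalization, -0.45 with rescaling, -0.33 with the length trend removed and -0.041 with the muscle covariate. Between the mutants, 0 to 21 members were lower and 0 to 1 higher without overlap over left-out libraries, and rescaling moved the core median from -0.01 to 0.07. Core minus base and lid ran from 0.12 to 0.22 in the homozygote and from -0.044 to 0.017 in the heterozygote over left-out libraries. The cause of these shifts was not tested.

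Replicate numbers of the labels did not pair the libraries (correlations of same-numbered libraries -0.65 to 0.33), and with the replicate block 0 members were called in each contrast, beside 216 loci lower in the homozygote in place of 1053. Depth is unknown in FPKM, so counting error cannot be given and the spread between the homozygotes sets the precision.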
